A study of Rattus norvegicus with 20 samples.

Results

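Ovaries of female rats whose dams ate 20 mg/kg/day of a brominated flame retardant mixture were compared with ovaries of rats whose dams ate 0.06 mg/kg/day of the same mixture. The members were all 9 arrays that the labels place in these 2 dose groups, 5 at 20 mg/kg/day (replicates 1 to 5) and 4 at 0.06 mg/kg/day (replicates 1, 2, 3 and 5), of 20 arrays in the whole series. The other 11 arrays, 6 at 60 mg/kg/day and 5 at 0 mg/kg/day, entered the fit only to share the estimates of spread and of slide differences. No gene passed the test in this comparison, so the differences below are values that did not pass it, ordered by p or by gene list.

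The animals were Sprague Dawley daughters of different litters, killed at 46 days of age, and each array held RNA from entire ovaries of 1 animal. Both groups descend from dams that received the mixture, by diet, from at least a week ahead of mating until weaning at day 21; neither is an unexposed control. The mixture was 52.1% DE-71 and 0.4% DE-79 (commercial polybrominated diphenyl ether products), 44.2% BDE-209 (the fully brominated diphenyl ether) and 3.3% hexabromocyclododecane (HBCD), a ring-shaped additive used in building foam. The diets held 250 mg per kg for the 20 mg/kg/day group and 0.75 mg per kg for the 0.06 mg/kg/day group. The dose given to the pups themselves was not measured in the data used here, and replicate 4 at 0.06 mg/kg/day, which the submitters removed as an outlier, was not analysed here.

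The ovary at this age is that of a young cycling rat. Oocytes lie in follicles, whose granulosa cells divide and secrete inhibin and anti-Müllerian hormone, while theca cells around them make androgens with the enzyme Cyp17a1. After ovulation the follicle becomes a corpus luteum, which takes up cholesterol, makes progesterone, is maintained in rodents by prolactin and is dismantled when prostaglandin F2-alpha acts on its receptor. The stroma between these structures is rich in fibrillar collagen and is laid down again around each ovulation and regression. The stage of the cycle at which each animal was killed is not given in the labels.

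Values are log2 signals relative to the 75th percentile of each array, so 0 is the brightness of that percentile and a difference of 1 is 2-fold. The 75th percentile ran from 1241 to 1541 units of processed signal at 20 mg/kg/day and from 1196 to 1552 at 0.06 mg/kg/day, with 74.8% to 80.0% of spots well above background over the 9 arrays. The arrays lay on 3 slides: slide 1 held 1 array at 20 mg/kg/day and 2 at 0.06 mg/kg/day, slide 2 held 1 of each, and slide 3 held 3 and 1. Slide moved 4454 probes past the adjusted threshold in limma, so slide was a block in the test unless stated otherwise. The defining ovarian markers were present on all 9 arrays: Cyp11a1, which cleaves the cholesterol side chain, stood between 6.65 and 7.34 at 20 mg/kg/day and between 7.03 and 7.66 at 0.06 mg/kg/day, and Inha, the inhibin alpha subunit, between 5.07 and 5.56 at 20 mg/kg/day and between 5.30 and 5.55 at 0.06 mg/kg/day. Foxl2, another marker, was not analysed here.

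3 features of single animals run through the results. Cyp17a1 was at -3.45 in replicate 2 and -3.49 in replicate 5 at 20 mg/kg/day and at -2.63 in replicate 1 at 0.06 mg/kg/day, against 1.71 to 3.37 in the other 6 animals. Akr1c18, which inactivates progesterone, was at -2.48 in replicate 2 at 0.06 mg/kg/day and between 5.31 and 7.05 in the other 8. Genes of ciliated oviduct epithelium, a tissue that lies against the ovary, averaged 1.39 above their mean over the 20 arrays in replicate 5 at 20 mg/kg/day and 0.47 above it in replicate 4, against -0.59 to 0.17 in the other 7 animals. The part of these animals in the differences below was not tested beyond leaving arrays out.

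Over all 23258 probes tested, limma called 0 (0%) at an adjusted p under 0.05, and the lowest adjusted p was 0.999. At an unadjusted p under 0.05 there were 634 probes (2.73%), 355 higher (1.53%) and 279 lower (1.2%) at 20 mg/kg/day. Among the 12452 genes, each read by its brightest probe, 0 (0%) were called, 348 (2.79%) lay under an unadjusted p of 0.05, 183 higher (1.47%) and 165 lower (1.33%). Evenly spread p values would put a share of 0.05 under that threshold. The shares of probes and of genes were both below it, so neither is an excess. The 2 groups did not overlap in 102 genes (0.819%), 65 with every animal at 20 mg/kg/day above every animal at 0.06 mg/kg/day (0.522%) and 37 below (0.297%). The middle gene differed by 0.01 and 52.7% of genes were higher; the median size of a difference was 0.10 and the 5th and 95th percentiles were -0.35 and 0.37. The median SE was 0.16.

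The split between higher and lower probes of small p was not stable to the scaling. Of the probes at an unadjusted p under 0.05, 56.0% were higher with slide as a block, 67.0% without it, 45.2% after quantile normalization, 45.5% after median centring, 37.1% after normexp background correction and 41.5% with no filter on dim probes. The count of such probes was 1745 (7.5%) without replicate 1 at 0.06 mg/kg/day and 960 (4.13%) without replicate 3 at that dose. The number called stayed at 0 in each case, with a lowest adjusted p of 0.454 and 0.0621.

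**Figure D1:**
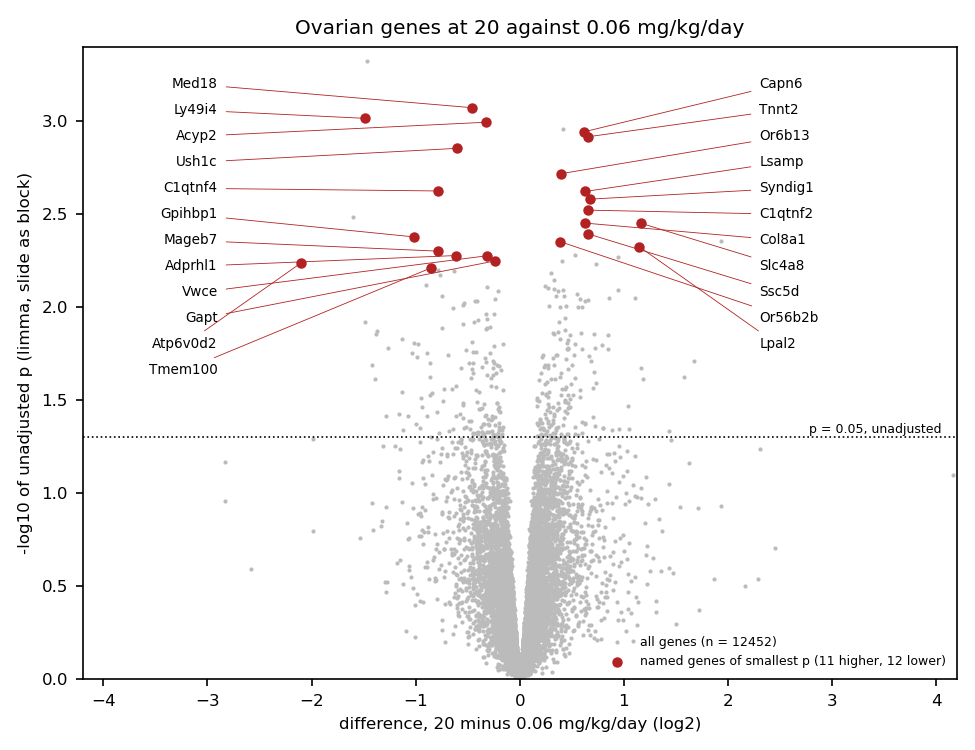
Each grey point is 1 of 12452 genes, with its difference (20 minus 0.06 mg/kg/day, log2) on the x axis and -log10 of its unadjusted p from limma with slide as a block on the y axis; red points are named genes of smallest p, 11 higher and 12 lower. The red points of smallest p lie at differences of moderate size, between 0.23 and 1.49 in either direction apart from Atp6v0d2 at -2.11, and none passed the adjusted threshold.

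Among the genes higher at 20 mg/kg/day, those of smallest p were a mixed set of structural, secreted and adhesion proteins. Capn6, a calpain relative without protease activity that binds microtubules, was at -0.57, -0.34, -0.63, -0.38 and -0.44 at 20 mg/kg/day, against -0.94, -1.64, -0.53 and -1.26 at 0.06 mg/kg/day. The animals at 20 mg/kg/day were tightly grouped and those at 0.06 mg/kg/day spread out, with replicate 3 inside the range of the higher dose. The difference was 0.61 ± 0.16 (SE), with an unadjusted p of 0.00114. Tnnt2, cardiac troponin T, was at 1.54, 1.73, 1.63, 1.58 and 1.31 at 20 mg/kg/day and at 1.28, 1.09, 1.32 and 0.32 at 0.06 mg/kg/day, so that only replicate 3 of the lower dose reached the range of the higher, and the difference was 0.65 ± 0.17 (unadjusted p = 0.00121). Mean values of the other 2 groups were -0.46 for Capn6 and 1.57 for Tnnt2 at 60 mg/kg/day, against -0.93 and 0.93 at 0 mg/kg/day.

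Lsamp, a neuronal adhesion molecule, stood at -3.08, -3.34, -3.78, -3.27 and -3.31 at 20 mg/kg/day and at -3.98, -3.54, -4.10 and -4.02 at 0.06 mg/kg/day. Only replicate 2 at 0.06 mg/kg/day was above the lowest animal of the higher dose, and the difference was 0.63 ± 0.17 (unadjusted p = 0.00238). Syndig1, a transmembrane protein of synapses, was at -1.36, -0.88, -1.15, -1.65 and -0.64 at 20 mg/kg/day against -1.86, -1.81, -1.37 and -2.18 at 0.06 mg/kg/day. Here replicate 3 of the lower dose lay within the higher group, as it did for Capn6, and the difference was 0.67 ± 0.19 (unadjusted p = 0.00262).

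3 secreted proteins followed. C1qtnf2, of the C1q and tumour necrosis factor related family, was at 0.60, 0.50, 0.02, 0.14 and 0.60 at 20 mg/kg/day against -0.07, -0.55, 0.16 and -0.32 at 0.06 mg/kg/day, a difference of 0.65 ± 0.19 (unadjusted p = 0.003). Col8a1, a short-chain collagen of basement membranes and vessel walls, averaged -2.42 ± 0.23 at 20 mg/kg/day (SD, n = 5) and -2.97 ± 0.54 at 0.06 mg/kg/day (SD, n = 4). Ssc5d, a secreted scavenger receptor protein, averaged -2.58 ± 0.20 at 20 mg/kg/day (SD, n = 5) and -3.25 ± 0.49 at 0.06 mg/kg/day (SD, n = 4). In both, replicate 1 at 0.06 mg/kg/day lay within the range of the higher dose and replicates 2 and 5 were the lowest of the 9 animals. The differences were 0.63 for Col8a1 and 0.65 for Ssc5d.

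The 4 remaining higher genes were dim. Slc4a8, a bicarbonate transporter, differed by 1.17 and was well above background on 1 of the 4 arrays at 0.06 mg/kg/day, and its sign turned to -0.05 after normexp correction. Lpal2 was at -5.26, -4.80, -5.08, -4.05 and -5.33 at 20 mg/kg/day, all above the -6.81, -6.54, -6.11 and -5.54 at 0.06 mg/kg/day, a difference of 1.15 ± 0.35 (unadjusted p = 0.00472). Or6b13 and Or56b2b, olfactory receptor genes of a large family of close copies whose probes may not separate them, differed by 0.39 each. Or6b13 followed the slide more than the dose: it was between -4.91 and -4.67 in the 4 animals on slide 3, of both groups, and between -6.45 and -5.84 in the 5 others.

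Among the genes lower at 20 mg/kg/day, Med18, a subunit of the Mediator complex that links transcription factors to RNA polymerase, had the smallest p of those named. It was at -0.55, -0.75, -0.31, -0.49 and -0.23 at 20 mg/kg/day, all below the -0.20, -0.14, -0.19 and 0.13 at 0.06 mg/kg/day. The difference was -0.46 ± 0.11 (unadjusted p = 8.44e-04), and it was -0.38, -0.56 and -0.47 within slides 1, 2 and 3. Acyp2, an acylphosphatase, was at -0.57, -0.49, -0.87, -0.59 and -0.53 at 20 mg/kg/day and at -0.21, -0.16, -0.39 and -0.27 at 0.06 mg/kg/day, also without overlap, a difference of -0.32 ± 0.08 (unadjusted p = 0.00101). The means at 60 and 0 mg/kg/day were -0.21 and -0.45 for Med18 and -0.35 and -0.48 for Acyp2.

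Gpihbp1, the capillary protein that carries lipoprotein lipase to the vessel lumen, stood at 0.01, -0.50, -0.87, -0.00 and -0.38 at 20 mg/kg/day against 0.59, 1.23, -0.07 and 1.12 at 0.06 mg/kg/day. Replicate 3 of the lower dose lay within the range of the higher dose and its other 3 animals stood apart above it. The difference was -1.02 ± 0.31 (unadjusted p = 0.00418), with means of -0.32 at 60 mg/kg/day and 0.56 at 0 mg/kg/day. Tmem100, another gene of vessel endothelium, averaged -1.86 ± 0.66 at 20 mg/kg/day (SD, n = 5) and -1.11 ± 0.25 at 0.06 mg/kg/day (SD, n = 4). Its difference of -0.85 was -1.70, -1.07 and -0.22 within slides 1, 2 and 3.

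Other lower genes carried limits of their own. Ly49i4, a natural killer cell receptor gene with many near-identical relatives, was at -6.38, -7.76, -6.50, -7.24 and -6.48 at 20 mg/kg/day, below all 4 values at 0.06 mg/kg/day, which were -6.12, -5.11, -5.09 and -5.58, but was well above background on 1 of the 5 arrays at 20 mg/kg/day. C1qtnf4 was at -5.84, -6.16, -6.18, -5.62 and -6.25 at 20 mg/kg/day against -5.53, -4.86, -5.37 and -5.16 at 0.06 mg/kg/day, again without overlap, and was well above background on 3 of the 5. Atp6v0d2, a proton pump subunit, was at -3.80, -3.16, -2.93, -2.69 and -2.23 at 20 mg/kg/day and at -0.04, 0.98, -3.23 and -1.40 at 0.06 mg/kg/day. Its difference of -2.11 was -4.27 within slide 1, 0.07 within slide 2 and -1.21 within slide 3. Ush1c (-0.60), Mageb7 (-0.78) and Adprhl1 (-0.62) were lower by moderate amounts. The difference of Adprhl1 was -0.69, -1.42 and 0.02 within slides 1, 2 and 3. Its group means were closer, -5.45 at 20 mg/kg/day and -5.18 at 0.06 mg/kg/day. Vwce (-0.31) and Gapt (-0.23) had nearly equal group means, -5.19 and -3.06 at 20 mg/kg/day against -5.21 and -3.04 at 0.06 mg/kg/day. The differences of these 2 genes appeared with the slide block, and that of Vwce turned to 0.01 without it.

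**Figure D2:**
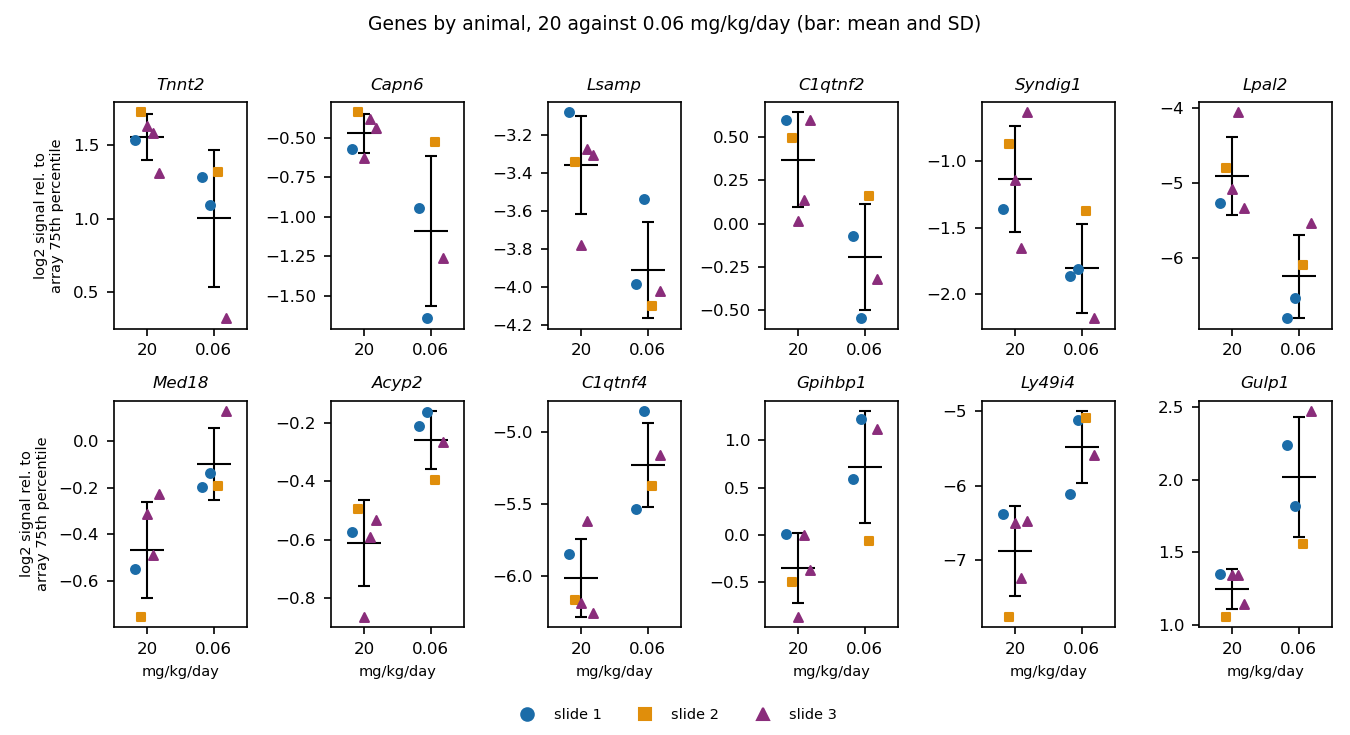
Each panel shows 1 gene, with the log2 signal relative to the array's 75th percentile on the y axis and the dose in mg/kg/day on the x axis; points are animals, coloured and shaped by slide, and bars give the mean and SD. The upper row holds 6 genes higher at 20 mg/kg/day, the lower row 6 lower ones, and the groups do not overlap for Lpal2, Med18, Acyp2, C1qtnf4, Ly49i4 and Gulp1.

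Genes whose groups did not overlap and whose differences were the largest of those included several secreted or receptor proteins. Gal, the neuropeptide galanin, was at 0.70, 0.64, 0.39, 0.64 and 1.42 at 20 mg/kg/day and at -0.28, -1.05, 0.38 and -0.16 at 0.06 mg/kg/day. The groups came within 0.01 of each other, at replicate 3 of both doses, and the difference was 1.17 ± 0.46 (unadjusted p = 0.0213). Uxs1, which makes the UDP-xylose that starts proteoglycan sugar chains, was at 1.33, 1.17, 1.59, 1.39 and 1.20 at 20 mg/kg/day against 0.99, 0.38, 0.75 and 0.65 at 0.06 mg/kg/day, a difference of 0.72 ± 0.28 (unadjusted p = 0.0222). Tspan11, a membrane tetraspanin, differed by 0.68 (unadjusted p = 0.0193). The dim genes Fstl5 and Klk1 differed by 0.70 and 0.58, with unadjusted p of 0.162 and 0.105. At 0.06 mg/kg/day Fstl5 was well above background on 2 of the 4 arrays and Klk1 on 1, so their levels there lie near background.

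On the lower side, Gulp1, an adaptor of the engulfment of dying cells, was at 1.35, 1.05, 1.34, 1.34 and 1.15 at 20 mg/kg/day against 2.24, 1.82, 1.55 and 2.47 at 0.06 mg/kg/day. The difference was -0.77 ± 0.25 (unadjusted p = 0.00673), with the higher dose tightly grouped, and the unadjusted p was 0.0664 without replicate 5 at 0.06 mg/kg/day. St3gal3, a sialyltransferase, averaged -3.89 ± 0.45 at 20 mg/kg/day (SD, n = 5) and -3.09 ± 0.23 at 0.06 mg/kg/day (SD, n = 4), a difference of -0.78. Calhm6, a calcium homeostasis modulator, differed by -0.85, with -1.15 within slide 1 and -0.27 within slide 3.

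Extracellular matrix genes stood higher at 20 mg/kg/day in nearly all measured members. Of 38 genes of collagens, proteoglycans and matrix glycoproteins, 27 were measured; 25 were higher and 2 lower, with a median difference of 0.30 against 0.01 over all genes. 6 of the 27 lay under an unadjusted p of 0.05, all of them higher, beside 1.47% of all genes in that direction, and none passed the adjusted threshold. These genes share the same animals, so their number is not a number of independent observations. The list mean was higher at 20 mg/kg/day within each slide, by 0.26, 0.39 and 0.49 on slides 1, 2 and 3. The list level was highest in the animals with low Cyp17a1. It was 0.41 and 0.28 in replicates 2 and 5 at 20 mg/kg/day and 0.20 in replicate 1 at 0.06 mg/kg/day, against -0.46 to 0.15 in the rest. The part of that state in the difference was not tested.

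The 2 strands of type I collagen and the chain of type III collagen, the main fibrils of the ovarian stroma, gave the clearest values. Col1a2 was at 5.92, 6.12, 6.11, 5.84 and 6.17 at 20 mg/kg/day and at 5.91, 5.13, 5.86 and 5.10 at 0.06 mg/kg/day. Replicates 1 and 3 of the lower dose were inside the range of the higher dose and replicates 2 and 5 far below it; the difference was 0.53 ± 0.17 (unadjusted p = 0.00521). Col1a1 was at 4.82, 5.15, 5.17, 4.30 and 5.30 at 20 mg/kg/day against 4.93, 3.83, 4.67 and 3.61 at 0.06 mg/kg/day, a difference of 0.72 ± 0.27 (unadjusted p = 0.0166). Col3a1 was at 4.38, 4.66, 4.54, 4.33 and 4.30 at 20 mg/kg/day against 4.54, 3.11, 4.32 and 3.65 at 0.06 mg/kg/day, a difference of 0.59 ± 0.21 (unadjusted p = 0.0137). In all 3 genes the same 2 animals of the lower dose, replicates 2 and 5, were the lowest of the 9.

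Bgn, the proteoglycan biglycan that binds collagen fibrils, was at 5.76, 5.72, 5.76, 5.59 and 5.61 at 20 mg/kg/day and at 5.54, 5.15, 5.76 and 5.12 at 0.06 mg/kg/day, a difference of 0.32. Col15a1, a basement membrane collagen, was at 0.75, 0.88, 0.98, 0.82 and 0.61 at 20 mg/kg/day and at 0.75, -0.09, 0.95 and 0.10 at 0.06 mg/kg/day, a difference of 0.38. Fbln1, the glycoprotein fibulin 1, averaged -2.82 ± 0.34 at 20 mg/kg/day (SD, n = 5) and -3.42 ± 0.62 at 0.06 mg/kg/day (SD, n = 4). Replicates 2 and 5 of the lower dose were again the lowest of the 9 animals for all 3. Group means at 60 and 0 mg/kg/day were 5.78 and 5.54 for Col1a2, 4.56 and 4.15 for Col1a1, 4.32 and 4.02 for Col3a1, and 5.58 and 5.28 for Bgn. The list's median difference from the 5 animals at 0 mg/kg/day, which both comparisons share, was 0.29 for the 20 mg/kg/day group and -0.05 for the 0.06 mg/kg/day group.

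Leaving out arrays moved the count of matrix genes of small p but not the sign of the list. Without replicate 5 at 0.06 mg/kg/day 1 of 27 lay under an unadjusted p of 0.05, without replicate 2 of that dose 4, and without replicate 1 of that dose 14, all higher. In the same 3 fits 1.45%, 1.51% and 4.84% of all probes were higher under that threshold, so the count over all probes moved too. Without replicate 5 at 20 mg/kg/day and replicate 2 at 0.06 mg/kg/day together, a choice made after seeing the data, 26 of 27 were higher, 2 lay under an unadjusted p of 0.05 and the median was 0.25. Both of those 2 were higher, beside 1.51% of all probes higher under that threshold in that fit. In RNA of whole ovaries, more cells of a type and more RNA per cell cannot be told apart.

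**Figure D3:**
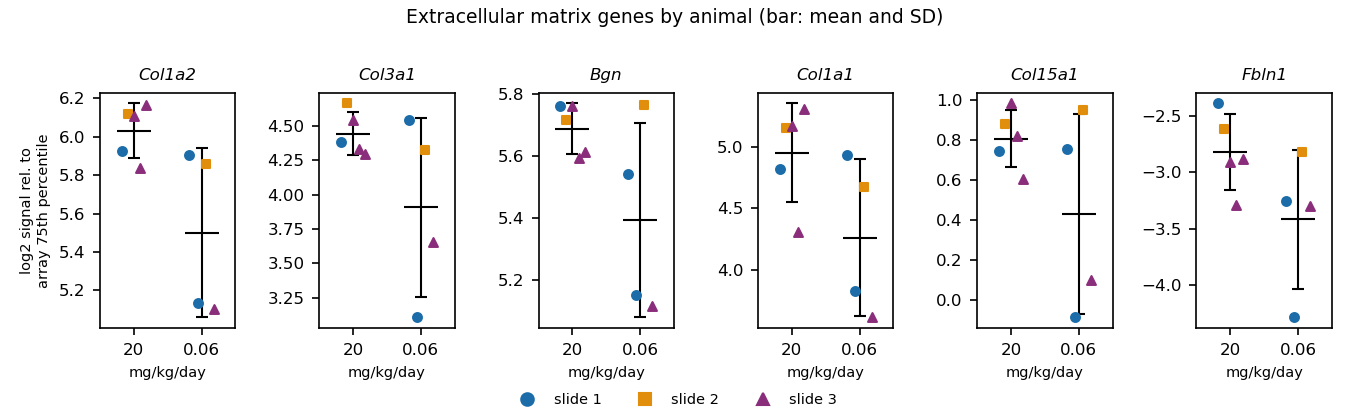
The 6 extracellular matrix genes of smallest p, with the log2 signal relative to the array's 75th percentile on the y axis and the dose in mg/kg/day on the x axis; points are animals by slide, and bars give the mean and SD. In each panel the 2 lowest points of all are replicates 2 and 5 at 0.06 mg/kg/day.

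2 of those 6 genes had an entry in the RefSeq table of promoters (GRCr8), and the 250 bases before their annotated start are shown because collagen genes stood higher together; CCAAT boxes on either strand (CCAAT or ATTGG) are in capitals.
Col1a2: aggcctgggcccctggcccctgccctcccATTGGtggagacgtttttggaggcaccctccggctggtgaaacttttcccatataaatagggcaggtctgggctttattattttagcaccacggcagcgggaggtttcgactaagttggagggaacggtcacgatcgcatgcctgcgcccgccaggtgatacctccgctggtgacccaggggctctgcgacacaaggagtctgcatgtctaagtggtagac
Col15a1: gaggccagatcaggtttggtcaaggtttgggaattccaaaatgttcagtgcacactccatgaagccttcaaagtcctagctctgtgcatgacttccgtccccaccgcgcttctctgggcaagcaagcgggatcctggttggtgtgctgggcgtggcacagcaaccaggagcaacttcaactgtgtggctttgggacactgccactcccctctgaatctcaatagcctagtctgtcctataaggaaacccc
The first lies at chr4:33518307-33518556 on the + strand and the second at chr5:66297296-66297545 on the + strand. The window of Col1a2 held 1 such box and that of Col15a1 0, against 34.0% of the 33469 windows of this length in the table that held at least 1.

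Enzymes and inhibitors that remodel the matrix were less one-sided, with 16 of 24 higher, 8 lower and a median of 0.12. Adamts19, a protease expressed in the ovary, was the 1 member under an unadjusted p of 0.05, at -5.00, -4.71, -5.24, -4.88 and -4.98 at 20 mg/kg/day against -5.22, -5.87, -5.39 and -5.41 at 0.06 mg/kg/day. Only replicate 1 at the lower dose overlapped the higher group. Timp2, an inhibitor of matrix metalloproteinases, differed by 0.28 (unadjusted p = 0.0993). The LH surge list, genes that follicles switch on before ovulation, had 11 of 15 higher, 0 under an unadjusted p of 0.05 and a median of 0.27; Plat (0.59), Adamts1 (0.80) and Timp1 (0.92) had the smallest p. This lean depended on single arrays: without replicate 2 at 0.06 mg/kg/day 7 of the 15 LH surge genes were higher, 8 lower and the median was -0.10, and with array weights 6 were higher, 9 lower and the median was -0.055. The median was 0.14 without replicate 2 at 20 mg/kg/day, and 0.59, 0.13 and 0.46 without replicates 1, 3 and 5 at 0.06 mg/kg/day.

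Contractile genes of smooth muscle had 13 of 15 members higher, 2 lower and a median of 0.31, with 0 under an unadjusted p of 0.05. Acta2, smooth muscle actin, was at 0.35, 0.64, 0.72, 0.63 and 1.21 at 20 mg/kg/day against 0.84, 0.01, 0.19 and -0.10 at 0.06 mg/kg/day, where replicate 1 was the high animal of the lower dose. Mylk, the kinase of myosin light chain, differed by 0.32 and Tpm1, a tropomyosin, by 0.39. Within slides the list mean differed by -0.03, 0.53 and 0.54. The list level was highest in the animals with low Cyp17a1. It was 0.42 and 0.44 in replicates 2 and 5 at 20 mg/kg/day and 0.34 in replicate 1 at 0.06 mg/kg/day, against -0.37 to 0.04 in the rest. The part of that state in the difference was not tested. Without replicate 5 at 0.06 mg/kg/day all 15 were higher and the median was 0.17, with 0 under an unadjusted p of 0.05. Without replicate 1 at 0.06 mg/kg/day 9 of the 15 lay under it, all higher, beside 4.84% of all probes higher under it in that fit.

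Cell cycle genes leaned the same way, with 29 of 33 higher and 4 lower, by a small median of 0.18. Mcm2, part of the helicase that opens DNA for replication, averaged -0.57 ± 0.16 at 20 mg/kg/day (SD, n = 5) and -0.81 ± 0.20 at 0.06 mg/kg/day (SD, n = 4). Replicate 1 of the lower dose lay within the higher group, and the difference was 0.27 (unadjusted p = 0.0534). Cdc6, which loads that helicase, differed by 0.42, and E2f1, a transcription factor of S phase entry, by 0.28. 0 of the 33 lay under an unadjusted p of 0.05, and the median was 0.06 without replicate 2 at 0.06 mg/kg/day, the lowest of the 9 animals for this list.

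Among genes of the corpus luteum, 2 hormone receptors stood lower at 20 mg/kg/day. Ptgfr, the prostaglandin F2-alpha receptor, was at -1.10, -1.27, -1.40, -0.81 and -0.83 at 20 mg/kg/day, against 0.22, 0.10, -0.68 and 0.22 at 0.06 mg/kg/day. Every animal of the higher dose lay below every animal of the lower, of which replicate 3 was the low one, and the difference was -0.98 ± 0.36 (unadjusted p = 0.0157). Prlr, the prolactin receptor, was at 0.77, 0.20, 0.71, 1.04 and 0.56 at 20 mg/kg/day and at 0.84, 2.15, 0.93 and 1.13 at 0.06 mg/kg/day, with overlap, and differed by -0.61 ± 0.25 (unadjusted p = 0.0265). Within slides 1, 2 and 3 Ptgfr differed by -1.26, -0.59 and -1.23 and Prlr by -0.73, -0.73 and -0.36. The unadjusted p of Ptgfr was 0.0519 without replicate 2 at 20 mg/kg/day and 0.0888 without replicate 5 at 0.06 mg/kg/day. That of Prlr was 0.0538 and 0.0615 without replicates 1 and 2 at 20 mg/kg/day and 0.0998 without replicate 2 at 0.06 mg/kg/day.

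The luteal list as a whole did not lean, with 8 of 21 members higher, 13 lower and a median of -0.08. Of these, 2 lay under an unadjusted p of 0.05, the 2 receptors above, and 1, Ptgfr, did not overlap. Over all genes 1.33% were lower under that threshold and 0.297% were lower without overlap. Means of Ptgfr were -0.86 at 60 mg/kg/day and -0.61 at 0 mg/kg/day, both between the 2 groups compared. Akr1c18 differed by 1.72 ± 2.11, and by -0.37 without replicate 2 at 0.06 mg/kg/day. Lhcgr, the luteinizing hormone receptor, was at -1.37, -3.01, -1.26, -0.74 and -3.36 at 20 mg/kg/day against -3.10, 2.10, -1.04 and -1.45 at 0.06 mg/kg/day, a difference of -1.16 ± 0.93. That same animal was again the one standing apart, and without it and replicate 5 at 20 mg/kg/day the difference was 0.08.

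**Figure D4:**
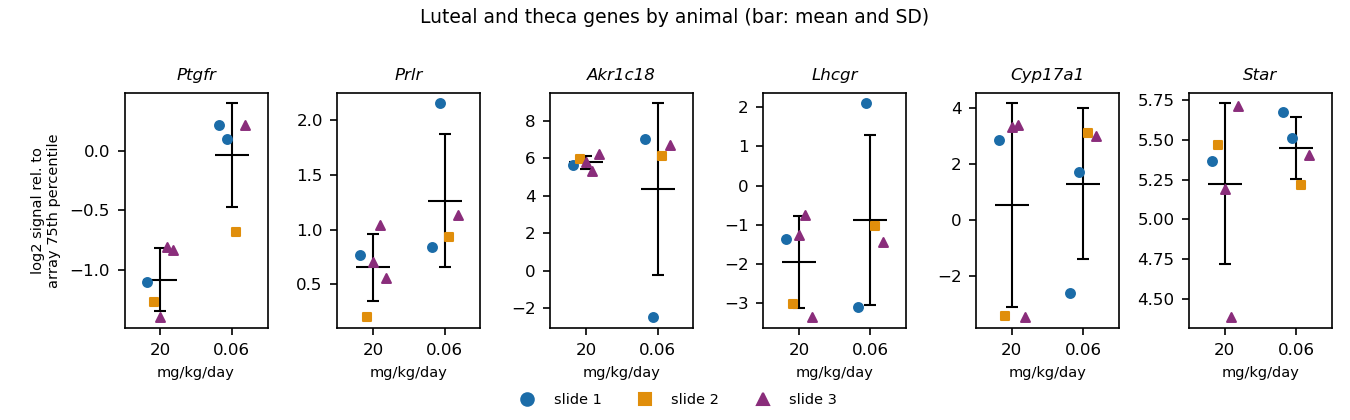
Luteal and theca genes by animal, with the log2 signal relative to the array's 75th percentile on the y axis and the dose in mg/kg/day on the x axis; points are coloured and shaped by slide and bars give the mean and SD. Ptgfr shows no overlap. Replicate 2 at 0.06 mg/kg/day lies several log2 units from its group, below it for Akr1c18 and above it for Lhcgr. Cyp17a1 and Lhcgr are low in replicates 2 and 5 at 20 mg/kg/day and in replicate 1 at 0.06 mg/kg/day.

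Steroid-forming enzymes had 8 of 26 members higher and 18 lower, with a median of -0.08 and 2 under an unadjusted p of 0.05, both lower and both without overlap, beside 1.33% of all genes lower under that threshold and 0.297% lower without overlap. Hsd3b5, of the 3-beta-hydroxysteroid dehydrogenase family, was at 5.23, 5.03, 5.05, 4.91 and 4.97 at 20 mg/kg/day against 5.54, 5.45, 5.24 and 5.25 at 0.06 mg/kg/day. The groups came within 0.01 of each other, and the difference was -0.29 ± 0.10 (unadjusted p = 0.0128). Sts, steroid sulfatase, was at 0.49, 0.27, 0.34, 0.48 and 0.38 at 20 mg/kg/day against 0.94, 1.75, 0.49 and 0.58 at 0.06 mg/kg/day, where the groups nearly touched at 0.49, a difference of -0.54 ± 0.23 (unadjusted p = 0.0337). Hsd3b2 differed by -1.16 (unadjusted p = 0.0824). The rat genes of the 3-beta family are close copies, and the probes named Hsd3b1, Hsd3b2 and Hsd3b5 may share transcripts.

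The main steps of steroid synthesis differed by less than their intervals. Star, which carries cholesterol into mitochondria, averaged 5.22 ± 0.51 at 20 mg/kg/day (SD, n = 5) and 5.45 ± 0.19 at 0.06 mg/kg/day (SD, n = 4), a difference of -0.25 with a 95% interval of -0.76 to 0.26. Cyp11a1 differed by -0.26 (-0.65 to 0.13) and Hsd3b1 by -0.08 (-0.27 to 0.11). Cyp17a1 was at 2.84, -3.45, 3.30, 3.37 and -3.49 at 20 mg/kg/day against -2.63, 1.71, 3.11 and 2.97 at 0.06 mg/kg/day, so both groups held low animals and the 95% interval was wide, -4.93 to 2.92. Theca and interstitial genes together had 10 of 18 higher, 8 lower, 0 under an unadjusted p of 0.05 and a median of 0.03, and Nr2f2 (0.18), Scarb1 (-0.35) and Cyp11a1 had the smallest p.

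Genes of cholesterol synthesis and transport, the supply of that pathway, were lower in 25 of 29 and higher in 4, with a median of -0.24. Within slides 1, 2 and 3 the list mean differed by -0.23, -0.44 and 0.06. Insig1, which holds back the sterol-sensing transcription factors, was at 1.38, 0.58, 1.65, 0.39 and 0.05 at 20 mg/kg/day against 2.01, 2.48, 1.36 and 1.44 at 0.06 mg/kg/day. 2 animals of the higher dose lay within or above the low end of the lower dose; the difference was -0.89 ± 0.34 (unadjusted p = 0.0177), the 1 member under 0.05. Scarb1, the receptor that takes cholesterol from high-density lipoprotein, was at 5.88, 5.14, 6.24, 5.62 and 5.48 at 20 mg/kg/day and between 5.91 and 5.97 in the 4 animals at 0.06 mg/kg/day, and Sc5d, a late enzyme of synthesis, differed by -0.55. The list was lowest in replicate 5 at 20 mg/kg/day, at -0.45, and highest in replicate 2 at 0.06 mg/kg/day, at 0.61. Without those 2 arrays 20 of 29 members were lower and the median was -0.04.

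Oocyte genes were lower at 20 mg/kg/day in 20 of 21 and higher in 1, with a median of -0.30 and 0 under an unadjusted p of 0.05. Zp3, a protein of the zona pellucida that surrounds the oocyte, was at 0.16, -0.19, -0.06, -0.30 and -0.55 at 20 mg/kg/day against 0.21, 0.67, -0.13 and 0.33 at 0.06 mg/kg/day. Its difference was -0.47 ± 0.23 (unadjusted p = 0.0586), with replicate 3 of the lower dose inside the higher group. Zp2, another zona protein, differed by -0.51 and Mos, the kinase that holds the egg in meiotic arrest, by -0.40. Gdf9, a growth factor made by the oocyte, differed by -0.38 ± 0.29 and Bmp15, its partner, by -0.13 (95% interval -0.60 to 0.33). The oocyte list level was lowest in replicate 5 at 20 mg/kg/day, at -0.71, and in replicate 3 at 0.06 mg/kg/day, at -0.63. Within slides the difference was -0.23, 0.33 and -0.49, and without slide 3 it had 11 members higher, 10 lower and a median of 0.01. Without replicate 2 at 20 mg/kg/day all 21 were lower and 6 lay under an unadjusted p of 0.05, beside 0.993% of all probes lower under it in that fit. The median was -0.51 in that fit and -0.19 without replicate 2 at 0.06 mg/kg/day.

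Granulosa genes did not lean, with 8 of 22 higher, 14 lower, 0 under an unadjusted p of 0.05 and a median of -0.03. Amh, anti-Müllerian hormone of small growing follicles, was at 0.87, 0.09, 0.30, 1.28 and -0.24 at 20 mg/kg/day against -0.12, 1.66, 0.52 and 1.43 at 0.06 mg/kg/day, with wide overlap and a difference of -0.46 (95% interval -1.23 to 0.30). Nr5a2 (0.18) and Wt1 (-0.11), transcription factors of these cells, were next. Fshr, the receptor of follicle-stimulating hormone, differed by -0.06 (-0.48 to 0.37), Inha by -0.02 (-0.29 to 0.24), Inhba by -0.14 (-0.82 to 0.54) and Fst, follistatin, by 0.18 (-0.40 to 0.76). Kitlg, the ligand by which granulosa cells signal to oocytes, differed by 0.01 (-0.22 to 0.24). Esr1 and Esr2, the oestrogen receptors, differed by -0.20 (-0.75 to 0.36) and 0.02 (-0.41 to 0.46), and 2 of the 3 probes of Esr2 had the sign of its brightest.

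Erythrocyte genes were lower at 20 mg/kg/day in all 12 measured of 18, with a median of -0.36 and 0 under an unadjusted p of 0.05. Hba-a1, an alpha globin, was at 5.52, 5.93, 5.11, 5.66 and 5.68 at 20 mg/kg/day against 5.91, 6.28, 6.09 and 5.88 at 0.06 mg/kg/day, a difference of -0.38 (unadjusted p = 0.0928). Hbb-b1, a beta globin, was at 4.39, 4.80, 3.61, 4.43 and 4.54 at 20 mg/kg/day against 4.81, 5.19, 4.97 and 4.59 at 0.06 mg/kg/day. Replicate 3 of the higher dose was the lowest and replicate 2 of the lower dose the highest for both. Hemgn, of red cell precursors, differed by -0.59. The globin genes are close copies that probes may not separate, so their number overstates the number of separate measurements. The list averaged -0.63 to -0.02 in the animals at 20 mg/kg/day and 0.05 to 0.50 in those at 0.06 mg/kg/day.

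Endothelial genes were lower in 17 of 19 and higher in 2, with a median of -0.17. The median was -0.10 without replicate 2 at 20 mg/kg/day, and -0.083 and -0.050 without replicates 2 and 5 at 0.06 mg/kg/day. Cldn5, a tight junction protein of vessels, was the 1 member under an unadjusted p of 0.05, at -0.43, -0.62, -0.37, -0.15 and -0.62 at 20 mg/kg/day against -0.55, -0.05, -0.02 and 0.26 at 0.06 mg/kg/day. Replicate 1 of the lower dose lay among the higher group; the difference was -0.44 (unadjusted p = 0.02). Lyve1, of lymphatic vessels, ran the other way at 0.41, and Sox17, of arteries, differed by -0.41. Gpihbp1 and Tmem100, described above, are vessel genes outside this list.

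Immune cell lists gave different signs by slide. Macrophage genes were higher in 19 of 21, lower in 2, with a median of 0.19 and 0 under an unadjusted p of 0.05; Tyrobp (0.31), Mrc1 (0.20) and Aif1 (0.26) had the smallest p. The list mean differed by 0.73 within slide 1 and by -0.09 and -0.13 within slides 2 and 3, and without replicate 2 at 0.06 mg/kg/day, whose level of -0.76 was the lowest, 12 were higher, 9 lower and the median was 0.01. Without replicate 1 at 20 mg/kg/day the macrophage median was 0.071. It turned to -0.12 without slide 1, with 7 higher and 14 lower, and to -0.011 without replicate 5 at 20 mg/kg/day and replicate 2 at 0.06 mg/kg/day together. Lymphocyte genes were lower in 15 of 18 and higher in 3, with a median of -0.21, a difference of 0.31 within slide 1 and of -0.67 and -0.65 within slides 2 and 3. The lymphocyte median was -0.32 and -0.14 without replicates 1 and 3 at 20 mg/kg/day, and -0.35, -0.13 and -0.059 without replicates 1, 3 and 5 at 0.06 mg/kg/day. Their 1 member under an unadjusted p of 0.05 was Cd79b, of the B cell receptor, which was lower at 20 mg/kg/day. It was not well above background on any array at that dose and was so on 2 of the 4 at 0.06 mg/kg/day. With so few arrays above background, no fold is given. Cd247 and Cd3g, of the T cell receptor complex, differed by -0.43 and -0.34. Granulocyte and mast cell genes were lower in 9 of 13, with a median of -0.08, 0 under an unadjusted p of 0.05, and Mcpt1 (-0.37), Csf3r (0.32) and Mcpt9 (-0.18) first.

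Lists of inflammatory signalling showed little. Interferon response genes were higher in 15 of 22 with a median of 0.10; Ifi44, an interferon-induced gene, was the 1 under an unadjusted p of 0.05, at 0.77, 0.78, 0.64, 0.73 and 0.75 at 20 mg/kg/day against 0.43, 0.29, 0.79 and 0.37 at 0.06 mg/kg/day, with replicate 3 the exception in the lower dose. Gbp2 (0.23) and Irf7 (0.54) came next. Antigen presentation genes were higher in 13 of 18 with a median of 0.10, and the 1 under 0.05, RT1-T24-2 (1.58), belongs to a family of near-identical class I genes and is uncertain; B2m differed by -0.24 and RT1-A2 by -0.31. Chemokines and interleukins were higher in 23 of 31 with a median of 0.05 and 0 under 0.05. Their smallest p was that of Cxcl14, a chemokine, at 2.34, 2.32, 2.00, 3.44 and 2.21 at 20 mg/kg/day against 4.40, 3.09, 3.10 and 3.25 at 0.06 mg/kg/day, where only replicate 4 of the higher dose reached the lower group; Ccl5 (-0.50) and Ccr7 (-0.24) followed.

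Markers of tissue next to the ovary were carried by single animals. Oviduct genes were higher in 12 of 15 with a median of 0.11 and 0 under an unadjusted p of 0.05; Foxj1, the master regulator of motile cilia, was at -7.40, -6.97, -5.74, -4.28 and -2.15 at 20 mg/kg/day against -5.53, -6.76, -8.39 and -6.38 at 0.06 mg/kg/day. Of the 15 oviduct genes, 7 were higher and 8 lower when replicate 5 at 20 mg/kg/day was left out; the same counts held without slide 3, and 4 were higher and 11 lower without replicate 5 at 20 mg/kg/day and replicate 2 at 0.06 mg/kg/day together. Rsph1, of the ciliary axoneme, differed by 0.37 and Wfdc2 by -0.14. Mesothelium and surface genes split 4 and 4 of 8, with a median of -0.01, 0 under 0.05, and Wt1, Krt8 (0.27) and Krt18 (0.36) first. Adipocyte genes were lower in 10 of 12 with a median of -0.29 and 0 under 0.05; Adipoq, adiponectin, was at -1.81, -0.41, -2.56, -1.18 and -3.90 at 20 mg/kg/day and at 0.17, -1.96, -1.27 and -1.71 at 0.06 mg/kg/day, and Cidea (-0.48) and Cidec (-0.90) coat lipid droplets. Their list level was 0.72 in replicate 2 at 20 mg/kg/day and 0.85 in replicate 1 at 0.06 mg/kg/day, the highest of each group, and -1.04 in replicate 5 at 20 mg/kg/day, the lowest of the 9 animals. The adipocyte median was -0.046 without replicate 5 at 20 mg/kg/day and -0.054 when replicate 1 of the lower dose was left out. The value was -0.47 and -0.48 without replicates 1 and 2 at 20 mg/kg/day, -0.47 and -0.43 without replicates 2 and 3 at 0.06 mg/kg/day, and 0.075 without slide 3.

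Genes through which brominated compounds are commonly studied gave few differences of small p. Cyp1b1, an enzyme induced through the aryl hydrocarbon receptor, was at -1.80, -3.66, -2.46, -3.37 and -3.67 at 20 mg/kg/day against -3.34, -2.18, -2.08 and -3.88 at 0.06 mg/kg/day, a difference of -0.05 (95% interval -1.09 to 0.99) whose sign turned to 0.20 in the fit to the 9 arrays alone. Ahr, the receptor itself, differed by 0.45 (-0.26 to 1.17). The list of the receptors AhR, CAR and PXR and their targets was higher in 7 and lower in 10 of 17, with a median of -0.05; Abcb1a, a drug efflux pump, was the 1 under an unadjusted p of 0.05, at -0.77, and Ahrr, the repressor of AhR, differed by -0.83 (unadjusted p = 0.221). NRF2 targets and antioxidant enzymes were higher in 16 and lower in 14 of 30 with a median of 0.02. Fth1, the ferritin heavy chain, was the 1 under 0.05, at 6.47, 6.49, 6.60, 6.42 and 6.42 at 20 mg/kg/day against 6.77, 7.04, 6.59 and 6.72 at 0.06 mg/kg/day, a difference of -0.32 (unadjusted p = 0.00775); Gpx3 (0.47) and Me1 (-0.46) followed.

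Thyroid hormone genes, of interest because brominated diphenyl ethers resemble that hormone, were lower in 9 of 13 and higher in 4, with a median of -0.07. Of the 13, 1 lay under an unadjusted p of 0.05 and was lower, beside 1.33% of all genes lower under that threshold. Slco1a4, a transporter of organic anions that include thyroid hormones, differed by -0.65, Thrsp, a target of the hormone, by -1.06, and Thra, a receptor, by 0.05 (95% interval -0.27 to 0.38). Nuclear receptors as a class were higher in 11 and lower in 14 of 25, with a median of -0.02 and 0 under 0.05; Rxrg (0.58) and Rarb (-0.33) came after Nr2f2.

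Growth factor pathways were balanced. TGF-beta and BMP genes were higher in 15 and lower in 18 of 33, with a median of -0.03. Bmpr2, the type II receptor of bone morphogenetic proteins, was at -1.08, -2.10, -2.01, -1.58 and -1.33 at 20 mg/kg/day against -0.91, -1.31, -0.95 and -0.36 at 0.06 mg/kg/day, a difference of -0.74 (unadjusted p = 0.0129) that was 0.03 within slide 1 and -1.15 and -1.28 within the other slides. Ltbp2, a matrix protein that binds microfibrils, was the other under 0.05, at 0.53, and Ltbp1, which anchors latent TGF-beta in the matrix, differed by 0.36. Wnt genes split 10 higher and 11 lower of 21 (median -0.0012; Fzd1 0.34, Wnt6 -0.55, Dkk3 0.15), Notch genes 6 and 8 of 14 (median -0.03; Dll1 -0.34, Hes1 -0.22, Lfng -0.14), and insulin and IGF genes 11 and 9 of 20 (median 0.02; Igf1r -0.23, Igfbp2 -0.30, Igfbp5 -0.29), with 0 under 0.05 in each.

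The remaining lists held medians within 0.1 of 0. Apoptosis genes were higher in 18 of 28 (median 0.02), with Endog, a mitochondrial nuclease, the 1 under an unadjusted p of 0.05, at -0.51, followed by Cflar (0.38) and Fas (0.33). Among p53 targets 6 of 17 were higher (median -0.08), and Sesn2, a stress-induced inhibitor of mTOR signalling, was the 1 under 0.05, at -4.09, -4.29, -3.88, -4.06 and -4.07 at 20 mg/kg/day against -4.07, -3.64, -3.71 and -3.81 at 0.06 mg/kg/day; Zmat3 (-0.21) and Fas came next. Chaperones were higher in 16 of 21 (median 0.05), although the 2 of smallest p, Dnajb9 (-0.30), the 1 under 0.05, and Hspa5 (-0.24), both of the endoplasmic reticulum, were lower and Hspb8 (0.44) was higher. Imprinted genes were higher in 10 of 16 (median 0.07): Cdkn1c, a cell cycle inhibitor, was the 1 under 0.05, at -1.66, -0.99, -1.46, -1.22 and -0.97 at 20 mg/kg/day against -1.59, -1.83, -1.39 and -1.68 at 0.06 mg/kg/day, and Dlk1 (0.71) and Plagl1 (0.35) followed.

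Immediate early genes were higher in 14 of 24 (median 0.03; Klf2 -0.21, Myc 0.32, Ier3 0.46), oxidative phosphorylation genes in 19 of 32 (median 0.01; Ndufb8 0.17, Ndufa1 -0.14, Sdha -0.15), DNA methylation and Tet genes in 5 of 8 (median 0.03; Mbd2 0.15, Tdg 0.15, Zfp57 -0.17) and circadian clock genes in 8 of 16 (median -0.0027; Bmal1 -0.36, Bhlhe40 0.60, Npas2 -0.24). 0 of their members lay under an unadjusted p of 0.05. Over all 38 lists, 25 of 775 memberships (3.23%) lay under that threshold, near the 2.79% of all genes, and 21 lists held none. The medians of the extracellular matrix, smooth muscle, cell cycle, cholesterol, lymphocyte, endothelial and erythrocyte lists kept their sign in all 27 alternatives. So did those of the steroid, luteal, matrix protease, thyroid hormone, chaperone and imprinted lists, so a kept sign was not particular to lists that leaned. The theca, AhR and NRF2 medians turned in 10, 11 and 12 of the 27. Those of the LH surge, macrophage, oocyte, adipocyte and oviduct lists turned in 1 to 3 of them, as given with each list.

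**Figure D5:**
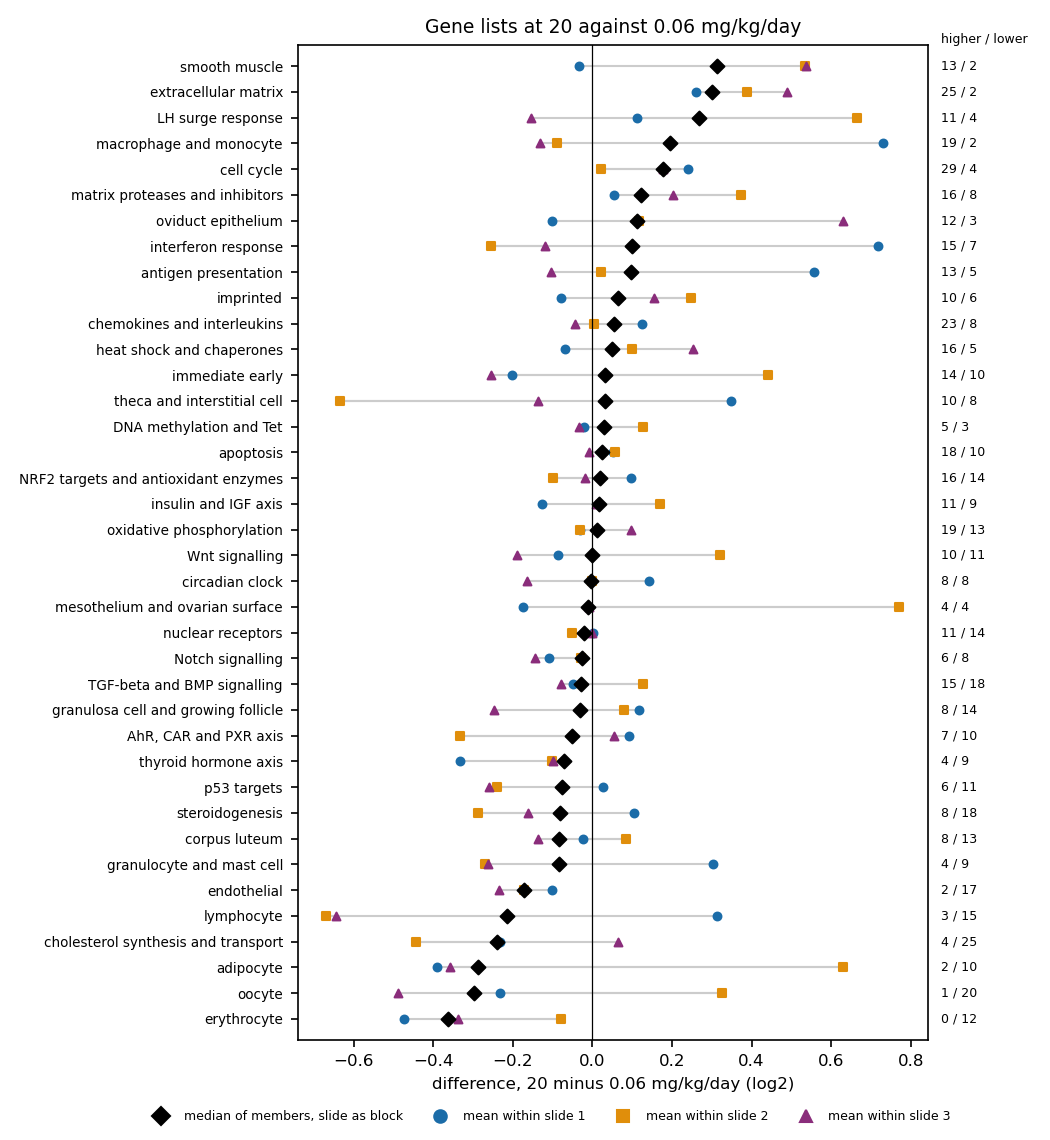
Each row is 1 of 38 gene lists, ordered by the median difference (20 minus 0.06 mg/kg/day, log2, x axis) of its measured members, drawn as a diamond; coloured points give the difference of list means within each slide and the numbers at the right count members higher and lower. The extracellular matrix, cell cycle and matrix protease lists are above 0 and the erythrocyte, endothelial, thyroid hormone and Notch lists below 0 on all 3 slides, while the macrophage list is above 0 only on slide 1.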

How the data were processed

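Whole-ovary RNA was labelled with 1 dye (Cy3) and hybridised to Agilent rat arrays, 1 array per animal. Per the file headers, the authors' spot intensity values came from Feature Extraction 11.5.1.1 (protocol GE1_1105_Oct12), background-corrected and not scaled between arrays. The deposited log2 table, whose centring is not stated, correlated with the values used here at r = 0.946 to 0.991 per array (column medians -0.07 to 0.08) and served as an alternative. Log2 processed signals were set relative to each array's 75th percentile over non-control spots, outlier-flagged spots were dropped, and spots of a probe were averaged. Of 30367 probes, 32 had no spot left on at least 1 array and 23258 were well above background on at least 4 of 20 arrays. Accessions in the scanner files, matched to RefSeq transcripts (GRCr8, names only), gave 18758 probes 1 symbol and 11609 none; each gene was read by its brightest probe. Differences were fitted with limma 3.58.1 in R 4.3.3 (lmFit and eBayes) over all 20 arrays, with 4 dose means and slide as a fixed block, and Benjamini-Hochberg adjustment over all probes. Animals came from independent litters, per the labels.

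Named genes had a gene symbol other than a clone or locus name and a signal well above background throughout at least 1 of the groups. They were the 12 of smallest p in each direction, the 6 largest differences in each direction without overlap, a fixed set of ovarian and exposure genes, and the 3 of smallest p in each of 38 lists; a few other list members are given for their role. Gene sets and lists were chosen with earlier results of these data known, and Foxl2 was not analysed here. The alternatives were other slide treatments, leaving out each slide or replicate, the 9 arrays alone, quantile and median scaling, normexp background (offset 50, on median signals), other filters, array weights, a replicate block, the spike-in slope set (0 on 3 arrays at 20 mg/kg/day and 1 at 0.06 mg/kg/day) and the deposited table. The fit was tested on simulated data. Precision is limited by the 5 and 4 arrays. A few genes that the naming rule selects are not reported here.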

Additional observations from a re-analysis of the deposited data

Results flagged for a closer look

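In 386 groups of animals, over 193 genes and lists, 24 values lay far from the rest of their own group by Dixon's gap test; chance alone flags about 1 in 20 groups. Slide was left in the values tested. At 0.06 mg/kg/day replicate 3 was the only array on slide 2 and replicate 5 the only 1 on slide 3. For those 2 animals a slide difference and an animal difference cannot be told apart by this test. Among the lower genes, Acyp2 was at -0.87 in replicate 3 at 20 mg/kg/day and Calhm6 at -5.14 in replicate 2, the lowest of that group in each case. Ptgfr, the prostaglandin F2-alpha receptor, was at -0.68 in replicate 3 at 0.06 mg/kg/day, against 0.10 to 0.22 in the other 3 animals. Or6b13 was at -4.91 and Klk1 at -6.01 in replicate 5 at 0.06 mg/kg/day, and Fstl5 at -5.02 in replicate 2 at 20 mg/kg/day. That value of Or6b13 lay close to those of the other animals on slide 3, as described above. Akr1c18, which inactivates progesterone, was at -2.48 in replicate 2 at 0.06 mg/kg/day, against 6.14 to 7.05 in the rest of that group.

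Among list members, replicate 4 at 20 mg/kg/day held the lowest Gpx3 (-2.61) and the highest Dll1 (-4.67) and Cxcl14 (3.44) of its group, and replicate 2 the lowest Zmat3 (0.00). At 0.06 mg/kg/day, replicate 1 held the highest Cxcl14 (4.40) and Cidec (-3.97), replicate 2 the lowest Mcpt9 (-4.73) and Fas (-5.70), and replicate 5 the lowest Thra (-0.94) and the highest Ccr7 (-5.02). Of list levels, relative to their mean over the 20 arrays, the oocyte list was lowest in replicate 5 at 20 mg/kg/day (-0.71), the erythrocyte list lowest in replicate 3 (-0.63), and the endothelial (0.35) and thyroid hormone (0.22) lists highest in replicate 4. At 0.06 mg/kg/day the theca list was lowest in replicate 1 (-0.47), the erythrocyte list highest in replicate 2 (0.50) and the insulin and IGF list lowest in replicate 3 (-0.12).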

How the results depend on the processing

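No alternative called a probe at an adjusted p under 0.05 in limma. The lowest adjusted p still depended on single arrays. It was 0.0621, 0.312 and 0.454 without replicates 3, 5 and 1 at 0.06 mg/kg/day, and 0.482 without replicate 1 at 20 mg/kg/day. In every other alternative it was at least 0.838, the value without slide 3. The 634 probes (2.73%) at an unadjusted p under 0.05 became 1131 (4.86%, 672 higher and 459 lower) without slide 1. With array weights they became 1246 (5.36%, 774 and 472). The higher ones, 355 (1.53%) in the test above, numbered 234 (1.01%) without slide 3 and 200 (0.86%) after normexp correction. The lower ones, 279 (1.2%) in the test above, numbered 531 of 30335 probes (1.75%) with no filter on dim probes. They numbered 179 (0.77%) without the 2 arrays standing apart, replicate 5 at 20 mg/kg/day and replicate 2 at 0.06 mg/kg/day, a choice made after seeing the data. Probes whose groups did not overlap, 162 in all, numbered 2156, 747 and 2505 without slides 1, 2 and 3 and 573 without those 2 arrays, with fewer animals to compare. Leaving out each replicate gave 517 probes (2.22%, without replicate 2 at 20 mg/kg/day) to 1745 (7.5%, without replicate 1 at 0.06 mg/kg/day). The higher ones were 286 (1.23%) to 1126 (4.84%) and the lower ones 183 (0.787%) to 619 (2.66%). Probes not overlapping numbered 255 to 649, and 0 were called. Of 925 values of 55 named genes under 17 other alternatives, 35 turned sign, in 17 genes; the cause was not tested. Without slide 1 these were Hsd3b1 (0.0047), Akr1c18 (-0.20), Inha (0.0038), Bmp15 (0.0016) and Ahr (-0.064). Without slide 2 they were Cyp17a1 (0.85), Fst (-0.14), Esr2 (-0.048), Kitlg (-0.0016) and Cyp1b1 (0.45), and without slide 3 Fshr (0.16), Inha (0.012), Inhba (0.16), Gdf9 (0.038) and Bmp15 (0.029). Without the 2 arrays they were Cyp17a1 (0.0076), Akr1c18 (-0.63), Lhcgr (0.081), Fshr (0.072), Inha (0.027), Inhba (0.088), Bmp15 (0.10) and Cyp1b1 (0.27). Array weights turned Inha (0.025), Esr1 (0.026), Esr2 (-0.0013) and Cyp1b1 (0.25), no slide block turned Vwce (0.014) and Bmp15 (0.0069), and normexp turned Slc4a8 (-0.053). Kitlg turned after quantile normalization (-0.0050), with the spike-in slope set as a block (-0.0018) and in the authors' deposited table (-0.0025), and Cyp1b1 with the 9 arrays alone (0.20). Leaving out single replicates spanned 0 for Cyp17a1 (-2.39 to 0.53), Akr1c18 (-0.37 to 3.39), Fshr (-0.25 to 0.090), Inha (-0.086 to 0.031), Inhba (-0.33 to 0.14), Fst (-0.020 to 0.39), Esr1 (-0.52 to 0.0087), Esr2 (-0.077 to 0.13), Kitlg (-0.051 to 0.074), Cyp1b1 (-0.53 to 0.38) and Thra (-0.025 to 0.13). Same-numbered animals deviated from their group means with r = -0.13, -0.13, 0.06 and 0.12, and pairs of unlike number ran from -0.43 to 0.51. Slide was not removed from these values, so they cannot decide whether the numbers pair animals. With the replicate block 643 probes (2.76%) lay under an unadjusted p of 0.05, and 1.24% of all probes were lower under it. All 21 oocyte genes were lower in that fit, 9 of them under that threshold, and Cyp1b1 turned to 0.24.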
